A study of Mus musculus with 12 samples.

Results

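The 4 mouse Hox clusters were examined for Ino80 in J1, an established line of mouse embryonic stem cells. Ino80 is the ATPase of the INO80 complex, which slides and edits nucleosomes. The data came from chromatin immunoprecipitation with sequencing (ChIP-seq), which fixes proteins to DNA with formaldehyde, shears the chromatin, recovers with an antibody the fragments bound by a protein, and sequences them. The authors deposited a list of Ino80 peaks, the stretches called as enriched. The cluster windows were set in mm9, the mouse build in the submitters' processing notes, and a peak was counted if it overlapped a window by at least 1 bp. Of 12749 peaks in the list, 11 fell in the windows, 0.0863% of all. The windows are named for 38 listed Hox genes, 10 each in HoxA and HoxB and 9 each in HoxC and HoxD.

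The list was assigned to the sample labelled J1_Ino80, which is 1 library of J1 cells with no short hairpin RNA named in its labels. The cells were kept in ESGRO medium and grown in M15 medium for the ChIP, and the library was made with the Nextera XT kit. The other 11 samples, an input for Ino80 and 10 libraries of cells given a short hairpin RNA (non-targeting, or against Ino80), were not analysed here. With 1 library there is no replicate error, and the list gives no read count or score per peak, so the depth behind each peak is unknown. The peaks carry no expression values, so the cell type was not checked against markers.

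Hox genes encode homeodomain transcription factors that give cells their position along the body axis. They stand side by side in 4 clusters, and in general their order along the chromosome matches the order in which they are switched on in the embryo, from the low-numbered (anterior) genes to the high-numbered (posterior) ones. In embryonic stem cells the clusters are known as largely silent chromatin under Polycomb control, many of their promoters carrying activating and repressive histone marks together.

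Promoter sequences are shown to give the kind of DNA these windows hold, for HoxA and HoxD genes that have a member of the same number in all 4 clusters. HoxB and HoxC are left out because the promoter table matched few of their genes, 3 of 10 and 1 of 9. Hoxa4 belongs to such a group too, but is not shown because the promoter table did not match it. The sequences come from RefSeq in GRCm38.p6, a later build than that of the peaks, so their positions cannot be set against the peak positions given further on. Each run is the 250 bases before the gene's start, 5′ to 3′ on the gene's strand, with every CpG dinucleotide in capitals. The run of Hoxa9 lies at chr6:52227371-52227620 and that of Hoxa13 at chr6:52260881-52261130, both genes being on the minus strand. The run of Hoxd4 lies at chr2:74721728-74721977, that of Hoxd9 at chr2:74697513-74697762 and that of Hoxd13 at chr2:74667975-74668224, all 3 genes being on the plus strand.
Hoxa9: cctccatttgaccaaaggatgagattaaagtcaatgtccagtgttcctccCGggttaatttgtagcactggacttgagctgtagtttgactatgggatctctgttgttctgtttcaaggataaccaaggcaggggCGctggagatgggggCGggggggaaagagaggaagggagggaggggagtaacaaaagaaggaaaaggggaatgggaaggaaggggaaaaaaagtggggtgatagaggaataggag
Hoxa13: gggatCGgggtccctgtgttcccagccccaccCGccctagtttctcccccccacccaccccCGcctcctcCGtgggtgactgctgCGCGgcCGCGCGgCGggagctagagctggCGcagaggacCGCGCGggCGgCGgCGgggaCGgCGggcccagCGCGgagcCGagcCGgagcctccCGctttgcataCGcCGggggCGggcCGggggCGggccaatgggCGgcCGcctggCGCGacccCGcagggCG
Hoxd4: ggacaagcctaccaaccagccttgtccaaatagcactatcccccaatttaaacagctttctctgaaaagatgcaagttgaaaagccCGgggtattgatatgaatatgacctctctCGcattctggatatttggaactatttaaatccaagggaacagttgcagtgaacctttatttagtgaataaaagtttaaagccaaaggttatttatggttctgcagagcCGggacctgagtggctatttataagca
Hoxd9: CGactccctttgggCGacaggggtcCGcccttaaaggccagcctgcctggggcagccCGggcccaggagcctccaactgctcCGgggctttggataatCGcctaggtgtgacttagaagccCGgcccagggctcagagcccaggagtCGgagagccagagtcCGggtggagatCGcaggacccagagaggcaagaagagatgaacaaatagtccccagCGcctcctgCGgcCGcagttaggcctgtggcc
Hoxd13: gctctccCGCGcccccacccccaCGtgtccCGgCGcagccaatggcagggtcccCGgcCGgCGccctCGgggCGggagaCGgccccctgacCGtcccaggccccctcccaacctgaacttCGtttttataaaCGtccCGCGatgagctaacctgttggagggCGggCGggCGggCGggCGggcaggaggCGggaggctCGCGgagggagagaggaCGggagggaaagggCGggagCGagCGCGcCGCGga

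The promoters differed widely in CpG number. Hoxa13 and Hoxd13, which pattern the ends of the limbs and the urogenital tract, held 35 and 31 CpGs in these 250 bases. Among 27025 genes of the RefSeq promoter table, 2.49% had at least as many as Hoxa13 and 4.45% at least as many as Hoxd13. Hoxa9 and Hoxd4 held 3 each, and Hoxd9 held 13. Of the same kind in the clusters not shown, Hoxb4 held 14 and Hoxc4 held 8. The promoter table matched 22 of the 38 listed genes (57.9%), so a statement over all 38 is void. HoxA with 9 of 10 genes and HoxD with 9 of 9 could be described alone.

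In HoxA the CpG number ran from 3 to 35 with a median of 13.5, and in HoxD from 3 to 31 with a median of 12. The median over all genes was 6. In HoxA 7 of 9 genes lay above it, in HoxD 7 of 9, and over all genes 47.3%. Besides Hoxa13, the highest values in HoxA were 28 for Hoxa5 and 24 for Hoxa6, genes of the trunk region. In HoxD, Hoxd1 at 24 and Hoxd10 at 20 followed Hoxd13. Both clusters therefore held promoters above and below the general level, most of them above it, with like medians. Whether a peak lay on any of these promoters was not examined, because no mm9 annotation was used.

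**Figure D1:**
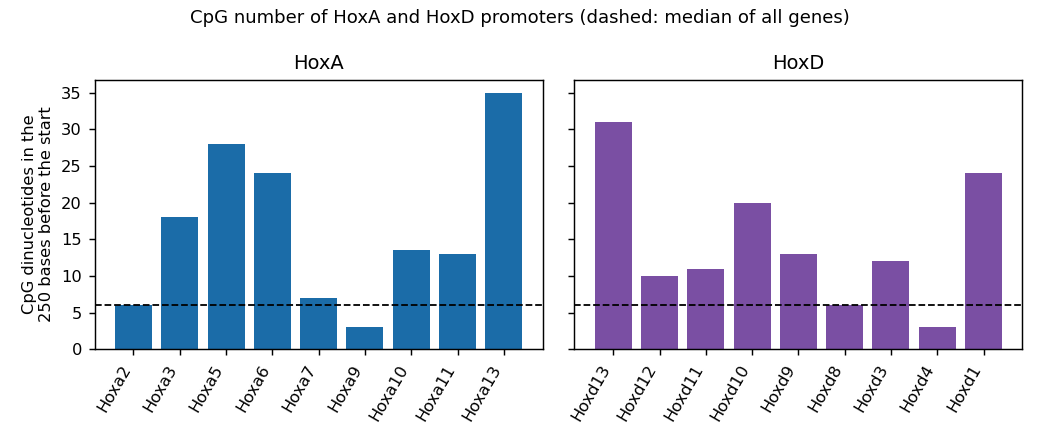
CpG dinucleotides in the 250 bases before the start (vertical axis, number) for 9 HoxA and 9 HoxD genes, in the order of GRCm38.p6 coordinates, with the mean where a gene has more than 1 listed start. The dashed line is the median of all genes, 6, and 7 bars in each cluster rise above it, with Hoxa13 (35) and Hoxd13 (31) the tallest.

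Ino80 peaks lay in all 4 clusters, but unevenly. HoxA and HoxB had 4 peaks each, HoxD had 2 and HoxC had 1. Windows of the same size that tile the same chromosome gave the background: at least 1 peak was found in 31.0% of those on chromosome 6 (HoxA), 56.6% on chromosome 11 (HoxB), 34.7% on chromosome 15 (HoxC) and 38.1% on chromosome 2 (HoxD). The share of the window under a peak, its coverage, was 18.1% in HoxA, 8.60% in HoxB, 4.46% in HoxD and 2.86% in HoxC. Together the peaks covered 52.4 of 610 kb, or 8.59%, and 557.6 kb of Hox sequence had no called peak.

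HoxA was the most covered cluster. Its window on chromosome 6 (52090001 to 52230000) held 25.4 kb of peaks. The first peak, at 52112401 to 52116200, was 3.8 kb wide. The second, at 52161201 to 52176800, was 15.6 kb wide and alone took 11.1% of the window. Only 1.02% of all peaks in the list were at least as wide, and it held 29.8% of the sequence under peaks in the 4 windows. The other two HoxA peaks were 2.8 kb (52192201 to 52195000) and 3.2 kb (52201001 to 52204200), with 6.0 kb between them. By the gene order of GRCm38.p6, Hoxa2, a hindbrain and neural crest gene, stands at the low-coordinate end of the listed HoxA genes and Hoxa13 at the high end. Of 3 equal parts of the window, the low part was covered to 8.14%, the middle to 33.4% and the high part to 12.9%. HoxA thus had peaks in every part, with its broad peak in the middle.

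HoxB had as many peaks over a longer window (chromosome 11, 96040001 to 96240000) and less coverage, 17.2 kb. The peaks were 3.0 kb (96061201 to 96064200), 6.0 kb (96110801 to 96116800), 5.4 kb (96212201 to 96217600) and 2.8 kb (96226201 to 96229000) wide. Hoxb13 stands at the low-coordinate end of this cluster and Hoxb1, a gene of the hindbrain, at the high end. Every part of the window held a peak: the low, middle and high parts were covered to 4.50%, 9.0% and 12.3%. Between the second and the third peak lay 95.4 kb without a peak, from 96116801 to 96212200. The pair nearest the Hoxb1 end was 8.6 kb apart.

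In HoxD both peaks lay towards the Hoxd13 end. The window on chromosome 2 (74490001 to 74620000) held a peak of 2.6 kb (74517001 to 74519600) and another of 3.2 kb (74528201 to 74531400), 8.6 kb apart, which together covered 5.8 kb. Their midpoints stood at 21.8% and 30.6% of the window. The part nearest Hoxd13 was covered to 13.4%, and the middle and high parts to 0%. From 74531401 to the window's border, 88.6 kb on the side of Hoxd1 held no peak.

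HoxC held a single peak of 4.0 kb, at chromosome 15, 102794201 to 102798200, in a window from 102740001 to 102880000. Its midpoint stood at 40.1% of the window, counted from the Hoxc13 end. The low and high parts of the window had 0% coverage and the middle 8.57%. In a window of the same 140 kb, HoxC thus had 4.0 kb under a peak and HoxA 25.4 kb.

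**Figure D2:**
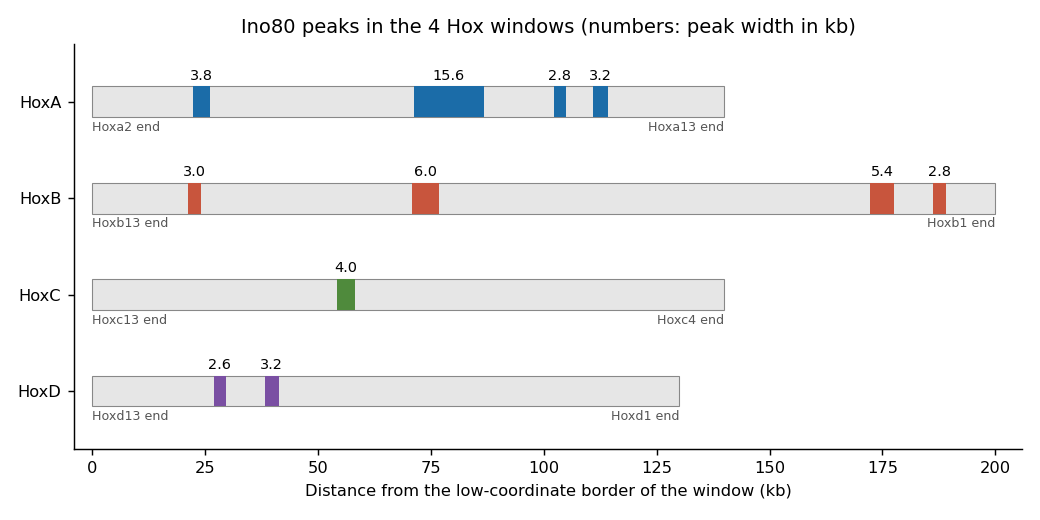
Position of the 11 Ino80 peaks (coloured boxes, width in kb above each) along the 4 Hox windows (grey), as distance in kb from the low-coordinate border. The listed gene at each end, by GRCm38.p6 order, is named without its position. HoxA carries the 15.6 kb peak, and the HoxD peaks of 2.6 and 3.2 kb both lie towards the Hoxd13 end.

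The Hox peaks had a median width of 3200 bp, against 3600 bp over the list (quartiles 2400 and 5200 bp). Above the list's upper quartile stood the 15.6 kb peak of HoxA and the HoxB peaks of 6.0 and 5.4 kb, and the others lay between the quartiles. Of the 11, 5 were at or above the list's median and 6 below it, and 1 reached 10 kb, against 4.75% of all peaks. The 47 peaks in the 500 kb on each side of the windows had a median of 4800 bp (quartiles 3200 and 6500 bp), and 5 of them reached 10 kb. Flank peaks were measured at full width, and 1 of those 5, of 21.8 kb near HoxC, lay mostly beyond the outer border of the flank. The widest flank peak, of 28.6 kb, stood beyond the Hoxb1 end of HoxB. All 11 Hox peaks lay wholly inside their windows. With 11 peaks from 1 library, the differences in median were given no test.

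**Figure D3:**
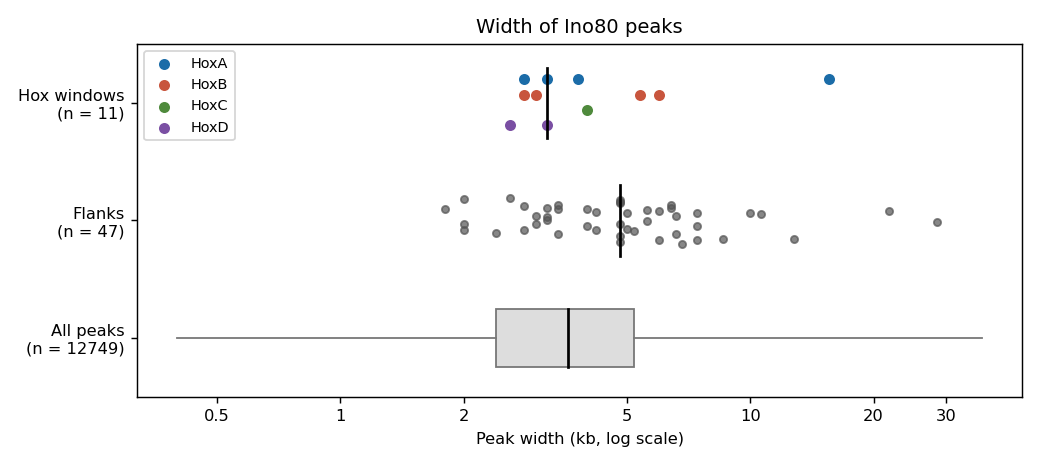
Peak width (horizontal, kb, log scale) for the 11 Hox peaks, coloured by cluster, the 47 peaks of the flanks, and all 12749 peaks, shown as a box of the quartiles with lines to the extremes. Black bars are medians, at 3200, 4800 and 3600 bp, and the HoxA peak of 15.6 kb stands apart from the other Hox peaks.

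The Hox clusters pack many genes into little sequence, with 6.23 listed genes per 100 kb of window against 0.847 protein-coding genes per 100 kb over the span of the list. Divided by the number of genes, the windows had fewer peaks than the genome at large. There were 0.289 peaks per listed Hox gene, against 0.589 peaks per protein-coding gene over the list, with the gene number, 21631, taken from GRCm38.p6. HoxA and HoxB had 0.400 peaks per listed gene, HoxD 0.222 and HoxC 0.111. Covered sequence per listed gene came to 2.54 kb in HoxA, the same as the 2.54 kb per protein-coding gene over the list. It was 1.72 kb in HoxB, 0.644 kb in HoxD and 0.444 kb in HoxC. Unlisted genes in the windows were not counted, and counting them would lower these Hox values. The values over the list count peaks wherever they lie, and no peak was assigned to a gene. At equal peaks per length, closer packing of genes alone gives a lower value per gene. Divided by gene number, coverage in HoxB, HoxC and HoxD was thus below the genome-wide level.

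Counted per length, every cluster lay above the level of its own chromosome. HoxA had 10.4 times the coverage of chromosome 6, where peaks covered 1.75% of the span between the first and the last peak. HoxB had 2.04 times that of chromosome 11 (4.21%), HoxD 1.81 times that of chromosome 2 (2.46%) and HoxC 1.17 times that of chromosome 15 (2.45%). The number of peaks per 100 kb was 6.87, 2.28, 2.77 and 1.29 times that of the chromosome in HoxA, HoxB, HoxD and HoxC. The HoxC values rest on 1 peak and the HoxD values on 2. Any 140 kb window of chromosome 15 with at least 1 peak, as 34.7% of them had, reaches the HoxC value of 1.29. For HoxC, standing above the chromosome in peak number therefore says no more than that a peak was present. The chromosome levels include stretches in which no peak can be called.

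A chromosome average hides how unevenly the peaks are spread, so each window was also ranked among all windows of its size on its chromosome. At least the coverage of HoxA was found in 22 of 1040 windows (2.12%). For the others the share was 18.0% (106 of 590) in HoxB, 17.1% (235 of 1371) in HoxD and 22.2% (157 of 708) in HoxC. At least as many peaks were found in 3.65% of windows for HoxA, 19.5% for HoxB, 17.7% for HoxD and 34.7% for HoxC. With peaks less than 5 kb apart joined, the share for HoxA was 1.92%. The most covered windows reached 34.0%, 44.3%, 41.1% and 47.1% on chromosomes 6, 11, 2 and 15. HoxA was therefore near the top of its chromosome, and the other clusters were not.

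Many of those windows had no peak at all, and against occupied windows alone the ranks were lower. At least the coverage of HoxA was found in 6.83% of occupied windows, of HoxB in 31.7%, of HoxD in 44.9% and of HoxC in 63.8%. The median occupied window was covered to 3.29% on chromosome 6, 4.90% on chromosome 11, 3.85% on chromosome 2 and 4.50% on chromosome 15. HoxC, at 2.86%, was below that median, and HoxD, at 4.46%, a little above it. Of 17 windows on chromosome 6 that also had 4 peaks, 3 reached the coverage of HoxA. Their median was 11.9%. Of 118 windows on chromosome 2 with 2 peaks, 83 reached the coverage of HoxD. Neighbouring windows are not independent, and these shares are descriptions of 1 list.

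**Figure D4:**
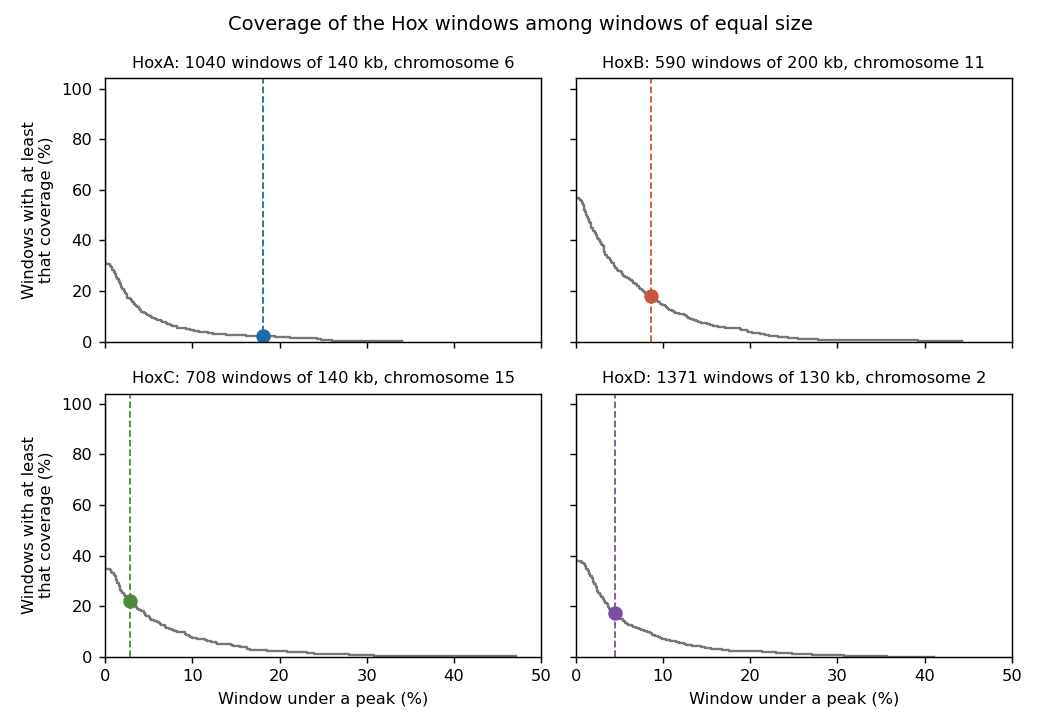
For each cluster, the percentage of equal-sized windows of its chromosome (vertical) with at least a given coverage (horizontal, percent of the window under a peak), as a grey line. The coloured point and dashed line mark the Hox window, at 2.12% of windows for HoxA, 18.0% for HoxB, 22.2% for HoxC and 17.1% for HoxD.

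The clusters stood in unlike surroundings. The 500 kb below and the 500 kb above a window were covered as a whole to 12.3% around HoxB (20 peaks), 8.52% around HoxC (17 peaks), 4.14% around HoxA (9 peaks) and 0.480% around HoxD (1 peak). Coverage was 4.38 times that of the flanks in HoxA and 9.29 times in HoxD. It was 0.698 times in HoxB and 0.335 times in HoxC. By coverage, HoxA and HoxD thus stood above these flanks, and HoxB and HoxC below. In peaks per 100 kb the ratio to the flanks was 3.17 in HoxA, 15.4 in HoxD, 1 in HoxB and 0.420 in HoxC. By peak number HoxB was therefore level with its flanks. The HoxA coverage ratio was 2.82 with flanks of 250 kb. The HoxD coverage ratio, like its peak ratio, rests on the single flank peak, of 4.8 kb. It was 4.65 with flanks of 250 kb and 1.86 with flanks of 1 Mb, and it turned to 0 with peaks at or above the list's median width alone, since both HoxD peaks are narrower. For HoxB the coverage ratio changed direction with flanks of 250 kb, to 1.064. Over the 4 windows the ratio was 1.35 (8.59% against 6.37%), and without HoxA it was 0.808, so the pooled value rests on HoxA.

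The sides of HoxA and of HoxB were unlike. Below HoxA, on the side of Skap2, the flank held 7 peaks and was covered to 6.96%. Above it, on the side of Evx1, a homeobox gene next to the cluster, there were 2 peaks and 1.32%. HoxB had 15 peaks and 15.8% on the side of Ttll6 and 5 peaks and 8.88% on the side of Skap1. HoxC had 8 peaks (7.84%) on the side of Calcoco1 and 9 peaks (9.20%) on that of Smug1, a DNA repair gene. HoxD had 1 peak (0.960%) on the side of Evx2 and 0 on that of Mtx2. These neighbours are the nearest protein-coding genes outside the Hox family in GRCm38.p6, and no peak was assigned to them. HoxA and HoxB had more peaks below the cluster than above it, and HoxC had like numbers.

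Windows of the cluster's own size were also set next to each other, 3 on each side. Around HoxA, 1 of 6 adjoining windows was more covered, the one directly below it at 19.6%. Around HoxB 5 of 6 were more covered, and around HoxC 4 of 6. Around HoxD 0 of 6 were, and 5 of 6 had no peak. Directly beside HoxC, on both sides, the window had no peak, and the same was true of the window beside HoxB at the Hoxb1 end.

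**Figure D5:**
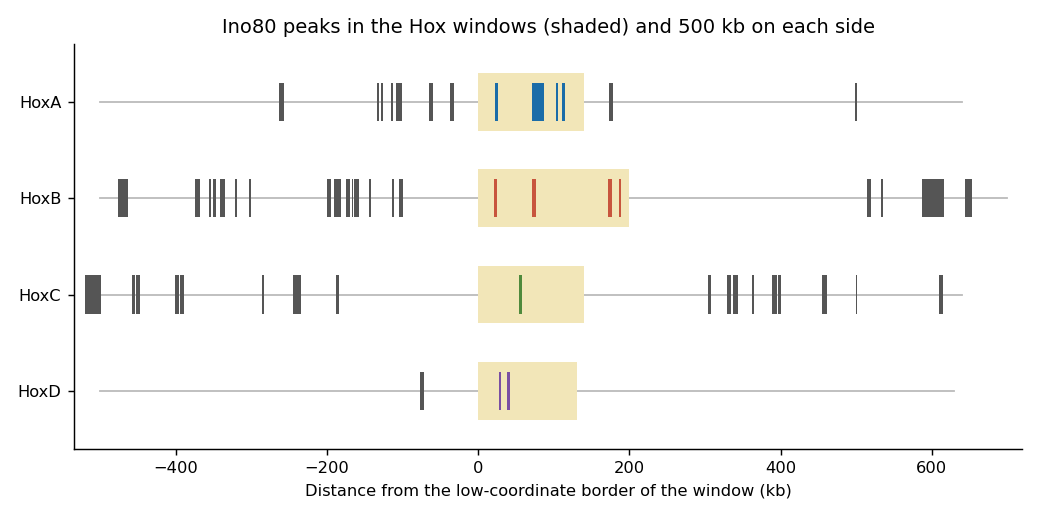
Ino80 peaks in the Hox windows (coloured, on a shaded window) and in the 500 kb on each side (grey), by distance in kb from the window's low-coordinate border. HoxB and HoxC are flanked by 20 and 17 peaks, HoxA by 9, 7 of them on the low side, and HoxD by 1, on the low side. Peak-free sequence lies next to HoxB and HoxC, and takes up the whole 500 kb on the high side of HoxD.

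The distance from a cluster's outermost peak to the next peak outside differed between clusters and sides. Beyond the last HoxD peak no peak followed for 915.4 kb, from 74531401 to 75446800, which crosses the Hoxd1 end of the window and runs past it. Of 991 distances between neighbouring peaks on chromosome 2, 41 (4.14%) were at least as long, and the median was 48.2 kb. On the Hoxd13 side the distance was 99.0 kb, reached by 36.2%. Beyond the last HoxB peak the distance was 325.8 kb (96229001 to 96554800), reached by 6.94% of distances on chromosome 11, where the median was 29.7 kb. On the Hoxb13 side it was 120.8 kb, reached by 18.9%. The HoxC peak was 238.0 kb from its neighbour on the low side and 245.8 kb from that on the high side, reached by 17.5% and 17.1% of distances on chromosome 15, where the median was 35.2 kb. In HoxA the distances to the nearest outer peaks were 54.6 and 59.0 kb, close to the chromosome's median of 58.3 kb.

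Within the windows, 7 distances separated neighbouring peaks, and 3 of them were under 10 kb: 6.0 kb in HoxA, 8.6 kb in HoxB and 8.6 kb in HoxD. The others were 15.4 and 45.0 kb in HoxA and 46.6 and 95.4 kb in HoxB. From the first to the last peak, the Hox peaks spanned 91.8 kb in HoxA, 167.8 kb in HoxB and 14.4 kb in HoxD.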

How the data were processed

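One deposited table was used, the authors' list of Ino80 peaks from the J1 Ino80 ChIP. It gives chromosome, start and end, with no count, score or p-value. Per the submitters' processing notes, the tools were SICER 1.1, which calls broad regions, Bowtie 0.12.8, CASAVA 1.7 and bedtools. The notes list hg19 beside mm9 with no roles. How SICER was set, and against which control, is not given in the sources used here, and the width and joining of peaks depend on it. Deposited starts lie on a 200 bp grid and deposited ends 1 bp below it. Printed starts and ends are the deposited ones plus 1 bp, on the reading that the list counts from 0 and includes its ends, which the authors do not state.

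Coverage was clipped at window borders. In place of random windows, all adjoining windows of equal size were counted outward from the Hox window within the span of the chromosome's peaks. No test was made. Gene order, gene numbers and neighbours come from a GRCm38.p6 table, which matched all 38 listed symbols, and no coordinate was converted. Peaks were named by position, all 11, and promoters shown only for Hox groups with a gene in all 4 clusters and for clusters with at least 80% of genes matched, a limit applied after the table was seen. Planned protein comparisons were not made. The functions were tested on 50 simulated lists. Python 3.11.15, NumPy 2.4.6, SciPy 1.17.1 and Matplotlib 3.10.9 were used. The genes and windows were chosen with earlier results of these data known.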

Additional observations from a re-analysis of the deposited data

How the results depend on the processing

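Of 103 recalculated values, 66 stayed within the limits set for them, 34 moved and 3 changed direction. Those limits were 1.5 times a count, or the 95% exact binomial interval of a share taken over 200 bp steps or over windows. The interval treats steps and windows as independent, although adjoining steps belong to the same few peaks, and for the ratios it takes the flank level as fixed. It is therefore too narrow to measure the error over 11 peaks, and the labels only sort the shifts by size. With peaks at or above the median width alone, the 11 peaks became 5, coverage 5.70%, the pooled ratio to the flanks 1.085, and HoxD lost both peaks, so that its ratio was 0 and 100% of windows reached its coverage. For HoxB that share became 21.7%. Windows 10 kb narrower or wider at both ends gave a coverage of 9.89% or 7.59% and a ratio of 1.56 or 1.14, and the narrower HoxD window was reached by 14.7% of windows. Flanks of 250 kb gave a pooled ratio of 1.52 and turned HoxB to 1.064, and flanks of 1 Mb gave 1.11. Among occupied windows alone the shares were 6.83% (HoxA), 31.7% (HoxB), 63.8% (HoxC) and 44.9% (HoxD). Leaving out a cluster, chosen after seeing the data, gave a pooled coverage of 5.74% without HoxA, 10.3% without HoxC and 9.71% without HoxD, and ratios of 0.808 without HoxA, 1.96 without HoxB, 1.82 without HoxC and 1.17 without HoxD. The cause of these shifts was not tested. The number of peaks in each window did not change by midpoint, by 50% overlap or after joining peaks under 5000 bp apart, nor did the median width by midpoint. Joining did lower the share of windows with at least the peak number, to 1.92% for HoxA and 15.3% for HoxB. The HoxA ratio to the flanks was 2.82 with flanks of 250 kb and 3.62 with wider windows. Depth per peak is unknown. No paired analysis was possible because only 1 library was analysed.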
